A study of Homo sapiens with 2 samples.

Results

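The 39 genes described here encode fibrinogen, the clotting factors and their anticoagulant partners, and plasma proteins of fibrinolysis and of the contact system. They also encode complement proteins and other plasma proteins, and hepatocytes secrete all of these into blood. The genes were chosen by gene name, and each name matched 1 of the 60448 genes in the deposited table. They fall into 3 fibrinogen genes, 17 other clotting and fibrinolysis genes and 19 complement genes. The 17 include AHSG, the gene of a plasma protein that is neither a clotting factor nor a fibrinolysis protein. Their messenger RNA was measured in HepG2 cells, a line grown from a human liver tumour that still makes many hepatocyte proteins. The cells were reverse transfected with 40 nM of an siRNA against SPRTN, a protease that degrades proteins crosslinked to DNA, or with 40 nM of a negative control siRNA. The transfection mix stayed on for 24 h, and RNA was taken at 72 h in all. No other genetic change or treatment is given in the labels, and 1 siRNA sequence against SPRTN was used. There is 1 library per group, so no difference below has a replicate check and no p-value was computed.

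Blood clotting is a cascade in which each protease activates the next, ending with thrombin, which cuts soluble fibrinogen into fibrin. Several of the proteases and anticoagulants carry glutamate residues that vitamin K-dependent carboxylation modifies, and plasmin later dissolves the fibrin. Complement is a parallel cascade of plasma proteins that tags microbes with fragments of C3 and C4 and can end in a pore built from C5b and the proteins up to C9. The liver is the main source of most of these proteins, and their genes depend on liver-enriched transcription factors such as HNF4, FOXA and C/EBP. Fibrinogen and several complement proteins are acute-phase proteins, whose synthesis rises with interleukin-6 signalling through STAT3.

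Fibrinogen was higher in the SPRTN siRNA library in all 3 chains, plasminogen was the farthest from equality of the measured members, and the complement genes lay on both sides of it. The RefSeq promoters of these 4 genes (GRCh38.p14, 250 bases before and 50 after the annotated start) are shown because the 3 fibrinogen genes moved together and PLG moved most. Capitals mark letters of 4 motifs searched on both strands: the HNF1 core GTTAAT, the C/EBP site TTGCNNAA, the STAT site TTCNNNGAA and the interleukin-6 type II element CTGGGAA. In these windows no match overlapped another. FGB and PLG have 2 RefSeq windows each, and the motif positions given below are those of the window shown. The FGA window is chr4:154590693-154590992 on the minus strand, that of FGB is chr4:154562730-154563029 on the plus strand, that of FGG is chr4:154612607-154612906 on the minus strand, and that of PLG is chr6:160701994-160702293 on the plus strand.
FGA: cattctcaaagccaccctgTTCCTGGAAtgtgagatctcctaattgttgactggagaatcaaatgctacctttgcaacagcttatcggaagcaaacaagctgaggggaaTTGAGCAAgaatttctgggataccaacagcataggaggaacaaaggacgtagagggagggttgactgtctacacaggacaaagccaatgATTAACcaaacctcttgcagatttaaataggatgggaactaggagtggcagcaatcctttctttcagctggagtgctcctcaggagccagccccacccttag
FGB: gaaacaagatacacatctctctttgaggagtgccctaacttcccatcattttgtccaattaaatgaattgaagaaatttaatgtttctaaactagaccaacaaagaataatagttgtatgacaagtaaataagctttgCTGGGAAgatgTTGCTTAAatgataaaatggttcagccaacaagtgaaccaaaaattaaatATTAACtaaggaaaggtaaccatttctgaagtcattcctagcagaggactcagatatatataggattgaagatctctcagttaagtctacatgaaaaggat
FGG: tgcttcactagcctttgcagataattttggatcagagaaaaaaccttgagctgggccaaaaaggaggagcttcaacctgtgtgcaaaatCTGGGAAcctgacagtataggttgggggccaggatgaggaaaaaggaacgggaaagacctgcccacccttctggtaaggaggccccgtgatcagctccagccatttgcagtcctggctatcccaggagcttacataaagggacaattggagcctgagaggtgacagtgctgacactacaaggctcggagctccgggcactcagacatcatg
PLG: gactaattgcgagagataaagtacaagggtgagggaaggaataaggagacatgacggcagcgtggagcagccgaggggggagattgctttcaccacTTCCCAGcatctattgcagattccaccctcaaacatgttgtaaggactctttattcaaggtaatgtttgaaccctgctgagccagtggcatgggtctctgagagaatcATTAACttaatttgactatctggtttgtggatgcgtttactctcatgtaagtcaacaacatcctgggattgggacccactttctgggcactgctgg
FGA held a STAT match 231 bases upstream of the start, a C/EBP match at 141 and an HNF1 core at 52. FGB held an interleukin-6 element at 112 bases, a C/EBP match at 101 and an HNF1 core at 51. FGG held 1 interleukin-6 element, at 161 bases, and PLG held one at 154 bases and an HNF1 core at 46.

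The SPRTN siRNA library held about 67100000 reads assigned to genes, against about 96400000 in the control library. SPRTN itself stood at 2.07 FPKM (a read number scaled by gene length and library depth) in the SPRTN siRNA library, against 7.81 FPKM in the control, which is 3.77-fold lower, in the direction of its label. All 7 hepatocyte markers checked were above 1 FPKM in both libraries, and their summed level was 44001 FPKM with SPRTN siRNA, against 33696 FPKM in the control. Of the markers of other cell types, TEK and ERG (endothelial), PTPRC and C1QA (macrophage), COL3A1 and DCN (stellate cells) and PF4, PPBP and GP9 (platelet) were listed at 0 in both. Others were expressed in both. With SPRTN siRNA and in the control, biliary KRT19 was at 375 and 315 FPKM, EPCAM at 113 and 104, and SOX9 at 67.5 and 58.3. ACTA2 (stellate and fibroblast) was at 15.9 and 12.8 FPKM, and PDGFRB (same list) at 8.49 and 8.15. CD14 (macrophage) was at 3.43 and 3.21 FPKM, and PECAM1 (endothelial) at 2.92 and 2.47. Some low markers differed: CDH5 (endothelial) was at 2.74 FPKM with SPRTN siRNA against 0.439 FPKM in the control, TIE1 (endothelial) at 1.07 FPKM against 1.84 FPKM in the control, and ITGA2B (platelet) at 1.36 FPKM against 0.682 FPKM in the control. The summed endothelial level was 7.11 FPKM with SPRTN siRNA, against 4.91 FPKM in the control. The sums with SPRTN siRNA and in the control were 3.61 and 3.35 FPKM for macrophage, 25.4 and 22.8 FPKM for stellate and fibroblast, 1.55 and 0.768 FPKM for platelet, and 556 and 477 FPKM for biliary markers. The nuclear RNAs MALAT1 and NEAT1 were 2.55-fold and 2.54-fold higher with SPRTN siRNA, and mitochondrial genes took 11.6% of reads, against 8.81% in the control. The part of these library differences in the members' values was not tested.

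Levels are deposited FPKM. The log2 ratio is log2(FPKM + 1) with SPRTN siRNA minus the same in the control, a scale that understates the change of low genes, while a fold is the plain ratio of FPKM. The range beside a fold is a 95% counting interval from recovered reads. It covers counting error alone, not the spread between cultures. Members with a mean FPKM of at least 1 over both libraries are called measured, and 33 of the 39 were. The measured member nearest to that limit was KNG1, with a mean of 1.68 FPKM, and F13B, with 0.834 FPKM, was the nearest below it.

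Of the 33 measured members, 23 had a log2 ratio above 0 and 10 below, with a median of 0.25 and a range of -0.56 to 1.64. Among all 13203 measured genes, 43.4% had a log2 ratio above 0, and the median was -0.05. The 7 hepatocyte markers had a median of 0.26, close to that of the members, with 5 above 0 and 2 below. Among them ALB had 0.72 and TTR 1.21, while APOB had -0.02 and TF -0.002. A log2 ratio of 0.5 or more was found in 10 members, against 7.05% of all genes, and one of -0.5 or less in 2 members, PROS1 and C5, against 8.6% of all genes. At least 2-fold higher on the log2 scale was 1 member, PLG, against 1.51% of all genes, and 0 members were at least 2-fold lower, against 0.788% of all genes. The counting interval of the fold lay above 1 for 22 members and below 1 for 7, and it included 1 for F7, C2, C8B and CFB. Over all genes with an interval, 31.5% lay above 1 and 44.3% below, so an interval that excludes 1 was common at this depth. In a culture measured in bulk, more RNA per cell and more cells that express a gene cannot be told apart.

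**Figure D1:**
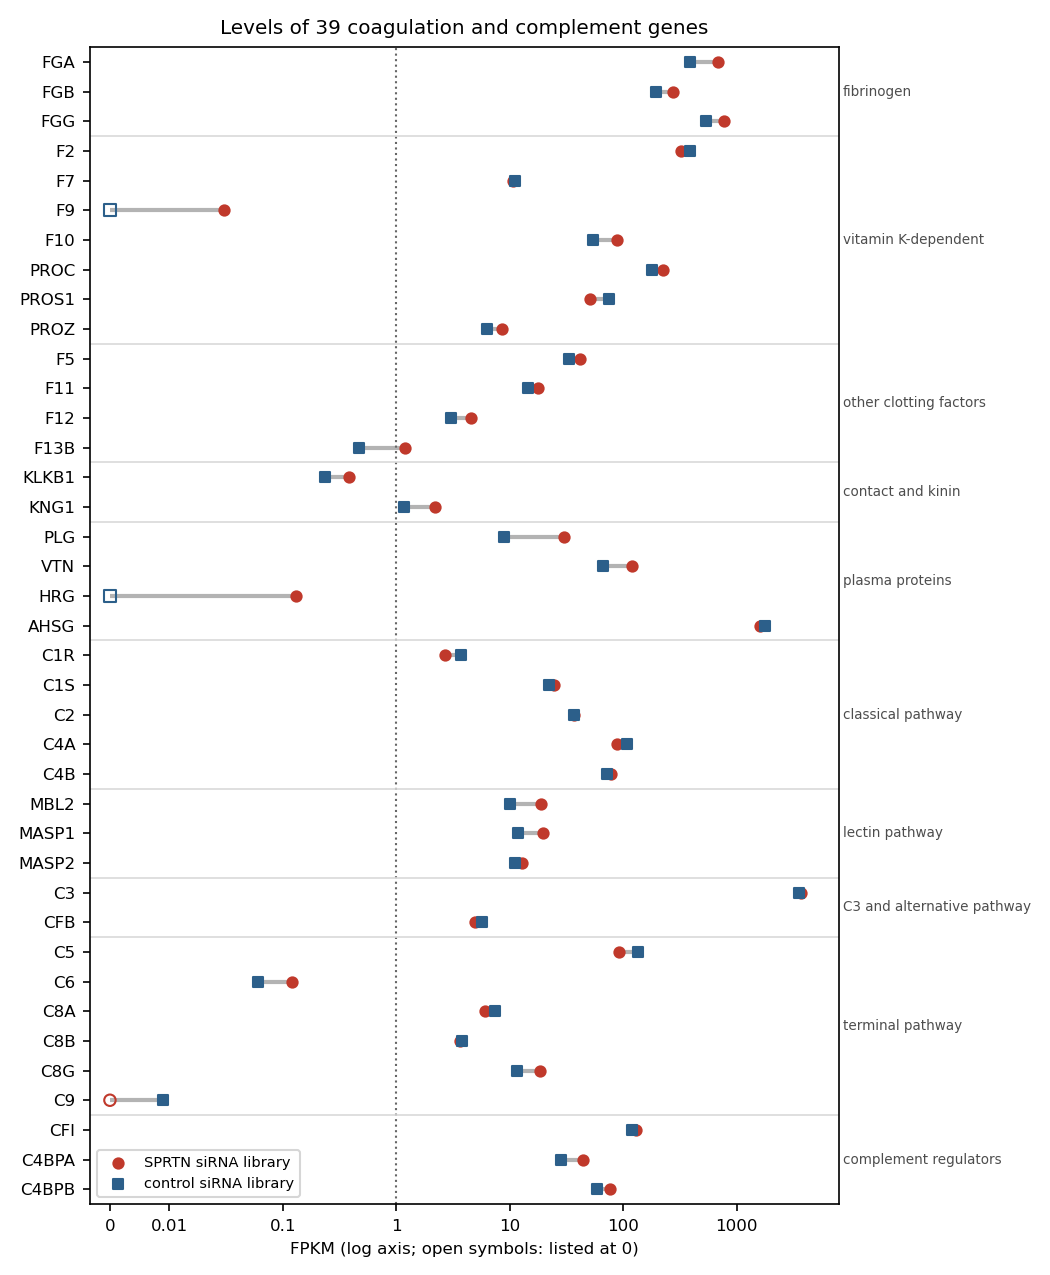
FPKM of the 39 members on a log axis, grouped by role, in the SPRTN siRNA library (red circles) and the control siRNA library (blue squares); open symbols at the left edge are listed at 0, and the dotted line is 1 FPKM. The members span from 0 to 3720 FPKM, and in most of them the symbols lie close together beside that span, with PLG the widest pair among the measured members.

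The 3 fibrinogen genes encode the alpha, beta and gamma chains, which are joined in equal numbers in the secreted hexamer. FGA stood at 681 FPKM with SPRTN siRNA, against 385 FPKM in the control, a 1.77-fold ratio (1.75 to 1.78). FGG stood at 778 FPKM, against 534 FPKM in the control, or 1.46-fold (1.44 to 1.47). FGB was the least abundant chain in both libraries, with 274 FPKM against 194 FPKM in the control, or 1.41-fold (1.38 to 1.44). The log2 ratios were 0.82, 0.54 and 0.50, so the alpha chain stood apart from the other chains, whose intervals overlap at their edges. Of all measured genes, 97.6% had a lower ratio than FGA, 93.9% a lower one than FGG and 92.9% a lower one than FGB. Together the 3 genes took 0.282% of all assigned reads with SPRTN siRNA, against 0.175% in the control, or 1.61 times the share (1.60 to 1.62).

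The vitamin K-dependent proteins went in both directions. Of the 6 measured, 3 had a log2 ratio above 0 and 3 below, with a median of 0.14. Factor X, the gene F10, which forms the enzyme that activates prothrombin, was the highest of them: 88.0 FPKM with SPRTN siRNA against 54.3 FPKM in the control, or 1.62-fold (1.56 to 1.68). Prothrombin itself, encoded by F2, was lower at 320.5 FPKM, against 387 FPKM in the control, which is 1.21-fold lower (1.19 to 1.23). F7, the protease that tissue factor binds to start clotting, was at 10.7 FPKM against 11.1 FPKM in the control, and its interval of 0.895 to 1.04 included 1. Enzyme and substrate of the last activation step thus differed in direction, and the starting protease did not differ detectably at this depth.

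Among the vitamin K-dependent anticoagulants the same split appeared. PROC, whose product protein C inactivates factors V and VIII, was at 226 FPKM with SPRTN siRNA, against 180.0 FPKM in the control (1.25-fold, 1.22 to 1.29). PROS1, which encodes protein S, the cofactor of activated protein C, was at 50.7 FPKM, against 75.4 FPKM in the control. That is 1.49-fold lower (1.45 to 1.53), the lowest log2 ratio of the measured members at -0.56. PROZ, whose product helps an inhibitor act on factor Xa, was at 8.60 FPKM against 6.26 FPKM in the control (1.37-fold, 1.23 to 1.53). Factor IX, the gene deficient in haemophilia B, was near absent in both libraries: F9 had 0.030 FPKM, about 3 reads, with SPRTN siRNA and was listed at 0 in the control.

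The clotting factors outside the vitamin K group all stood above equality. F5, the cofactor of factor Xa, was at 41.6 FPKM with SPRTN siRNA, against 33.2 FPKM in the control (1.25-fold, 1.22 to 1.28). F11, a protease that activates factor IX, was at 17.6 FPKM, against 14.6 FPKM in the control (1.21-fold, 1.12 to 1.30). F12, the protease that starts the contact pathway, was at 4.53 FPKM, against 3.03 FPKM in the control (1.49-fold, 1.29 to 1.74). GRK6 overlaps F12 on the opposite strand at a higher level, 28.2 FPKM with SPRTN siRNA and 27.4 FPKM in the control, and reads of the overlap cannot be placed without strand. F13B, the carrier subunit of the fibrin-crosslinking enzyme, was below the limit for a measured gene, with 112 reads (1.20 FPKM) with SPRTN siRNA and 64 reads (0.472 FPKM) in the control. Its ratio was 2.54-fold with a wide interval of 1.83 to 3.48.

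The contact and kinin genes were low. KNG1, which encodes high-molecular-weight kininogen, the precursor of bradykinin, was at 2.19 FPKM with SPRTN siRNA, against 1.17 FPKM in the control (1.88-fold, 1.60 to 2.21). An unnamed transcript on its opposite strand, AC068631.1, stood at 1.13 FPKM with SPRTN siRNA and 0.446 FPKM in the control, so part of either gene's reads may belong to the other. KLKB1, the gene of plasma prekallikrein, had about 40 reads (0.385 FPKM) with SPRTN siRNA and 35 reads (0.234 FPKM) in the control. CYP4V2 overlaps KLKB1 on the same strand, at 3.85 FPKM with SPRTN siRNA and 2.69 FPKM in the control. Some of the KLKB1 reads may therefore belong to CYP4V2.

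PLG, the gene of plasminogen, the precursor of the fibrin-dissolving enzyme plasmin, was the one measured member past 2-fold. It stood at 29.9 FPKM from 2057 reads with SPRTN siRNA, against 8.92 FPKM from 883 reads in the control, a 3.35-fold ratio (3.09 to 3.63). Of all measured genes, 99.7% had a lower log2 ratio than its 1.64. PLG has close copies with which it may share reads, and few reads were assigned to them: LPA had 1 read with SPRTN siRNA and 0 in the control, PLGLA 6 and 0, PLGLB1 2 and 2, and PLGLB2 0 and 7. VTN, which encodes vitronectin, a plasma adhesion protein, was at 121 FPKM, against 66.3 FPKM in the control (1.82-fold, 1.76 to 1.88). AHSG, the gene of fetuin-A, an inhibitor of calcium phosphate precipitation, lay the other way at 1607 FPKM against 1772 FPKM in the control, or 1.10-fold lower (1.10 to 1.11). HRG, the gene of a histidine-rich heparin-binding protein, had 20 reads (0.130 FPKM) with SPRTN siRNA and was listed at 0 in the control. AC068631.1 overlaps HRG too on the opposite strand, at a level above that of HRG in both libraries, so these reads may belong to either.

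**Figure D2:**
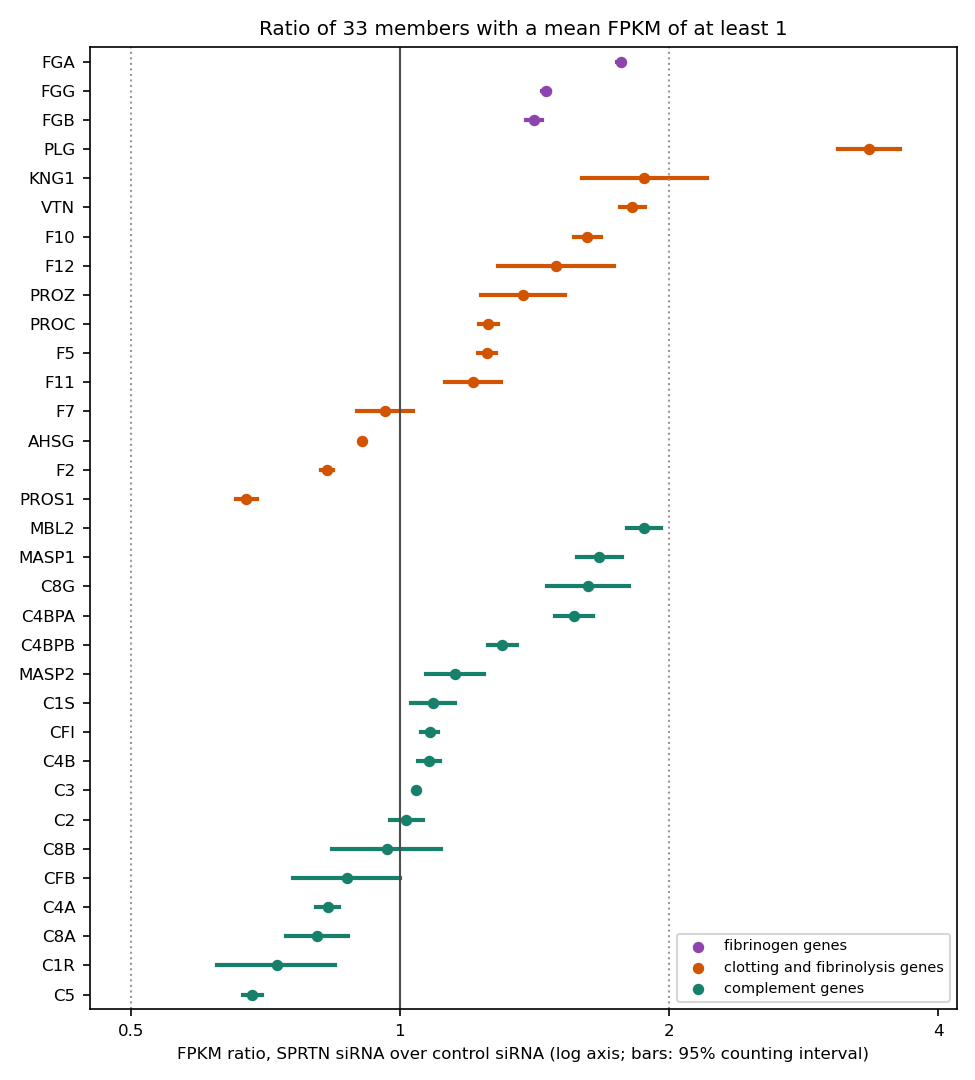
FPKM ratio of SPRTN siRNA over control siRNA for the 33 measured members on a log axis, with 95% counting intervals as bars and dotted lines at 2-fold lower and 2-fold higher. PLG at 3.35-fold lies past the upper line, the fibrinogen chains lie between 1.41 and 1.77, and the complement genes run from C5 at 0.684 to MBL2 at 1.87.

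Of the complement genes, those of the lectin pathway stood highest. MBL2, the gene of mannose-binding lectin, which recognises microbial sugars, was at 18.9 FPKM with SPRTN siRNA, against 10.1 FPKM in the control (1.87-fold, 1.79 to 1.96). MASP1, a protease that MBL2 carries, was at 19.7 FPKM, against 11.8 FPKM in the control (1.67-fold, 1.58 to 1.77). MASP2, the lectin-bound protease that cuts C4 and C2, was at 12.8 FPKM, against 11.1 FPKM in the control (1.15-fold, 1.07 to 1.24). All 3 were above equality, with a median log2 ratio of 0.70, and the interval of MASP2 lay below those of the other two.

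The classical pathway genes were close to equality, with a median log2 ratio of 0.02 over 5 members. C1S, a protease of the C1 complex, was at 24.4 FPKM with SPRTN siRNA, against 22.4 FPKM in the control (1.09-fold, 1.03 to 1.15). Its partner C1R was at 2.72 FPKM, against 3.73 FPKM in the control, a ratio of 0.728 (0.624 to 0.846), and it shares sequence range with C1RL on the same strand, which stood at 51.5 FPKM with SPRTN siRNA and 57.6 FPKM in the control. C2, which supplies the catalytic part of the C3 convertase, was at 37.2 FPKM, against 36.6 FPKM in the control, and its interval of 0.974 to 1.06 included 1. C4A and C4B are near-identical copies of the C4 gene, and the sources used here do not say how reads were split between them. C4A was at 89.0 FPKM with SPRTN siRNA, against 107 FPKM in the control (ratio 0.830), and C4B was at 77.6 FPKM, against 72.0 FPKM in the control (ratio 1.08), so their opposite directions are uncertain.

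C3, on which all complement pathways converge, was the most abundant member by FPKM and differed little: 3719.9 FPKM with SPRTN siRNA, against 3569.7 FPKM in the control (1.04-fold, 1.036 to 1.048). CFB, which forms the convertase of the alternative pathway, was at 4.96 FPKM, against 5.68 FPKM in the control, a ratio of 0.873 whose interval (0.759 to 1.00) reached 1.

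The terminal genes, whose products form the membrane pore, were the lowest of the complement groups, with 1 of 4 measured above 0 and a median log2 ratio of -0.15. C5, whose cleavage starts the pore, was at 92.8 FPKM with SPRTN siRNA, against 136 FPKM in the control, which is 1.46-fold lower (1.43 to 1.50). C8 is built from 3 chains of separate genes, and they did not move together. C8G, which encodes the gamma chain, was at 18.7 FPKM, against 11.5 FPKM in the control (1.62-fold, 1.46 to 1.80). C8A, the alpha chain, was at 6.04 FPKM, against 7.48 FPKM in the control (ratio 0.807, 0.745 to 0.874). C8B, the beta chain, was at 3.66 FPKM, against 3.79 FPKM in the control (ratio 0.966, 0.839 to 1.11). The remaining pore genes among the members were near absent: C6 had 11 reads with SPRTN siRNA and 8 in the control, and C9 had 0 and 1.

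The 3 regulators of complement stood above equality, with a median log2 ratio of 0.38. C4BPA and C4BPB encode the chains of the C4b-binding protein, which limits C4b and carries protein S in plasma. C4BPA was at 44.0 FPKM with SPRTN siRNA, against 28.1 FPKM in the control (1.57-fold, 1.49 to 1.65). C4BPB was at 76.7 FPKM, against 58.9 FPKM in the control (1.30-fold, 1.25 to 1.35). The interval of each chain excluded the ratio of the other. CFI, the protease that cuts C3b and C4b, was at 129.7 FPKM, against 120.1 FPKM in the control (1.08-fold, 1.06 to 1.10).

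Set side by side, the fibrinogen genes had a median log2 ratio of 0.54 (3 of 3 above 0), the other clotting and fibrinolysis genes 0.33 (9 of 13 measured above 0) and the complement genes 0.11 (11 of 17 measured above 0). All measured genes had a median of -0.05, with quartiles at -0.26 and 0.17, and 43.4% of them lay above 0. The groups overlap: the complement genes ranged from -0.54 to 0.84 and the clotting and fibrinolysis genes from -0.56 to 1.64, and all 3 fibrinogen values lie within both ranges. With 1 library per group this order has no test.

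By share of reads the order was not the same. The 17 clotting and fibrinolysis genes took 0.364% of assigned reads with SPRTN siRNA, against 0.382% in the control, although most of them had ratios above 1. AHSG alone gave 162918 of their 244198 reads with SPRTN siRNA, and 258266 of 368149 in the control, and it was lower. AHSG is not itself a clotting or fibrinolysis gene, and without it the share of this group was higher with SPRTN siRNA than in the control. The 19 complement genes took 0.420% of reads, against 0.404% in the control, and C3 gave 218197 of their 281403 reads with SPRTN siRNA and 301043 of 389567 in the control. All 39 members together took 1.07% of reads with SPRTN siRNA, against 0.960% in the control, or 1.11 times the share.

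**Figure D3:**
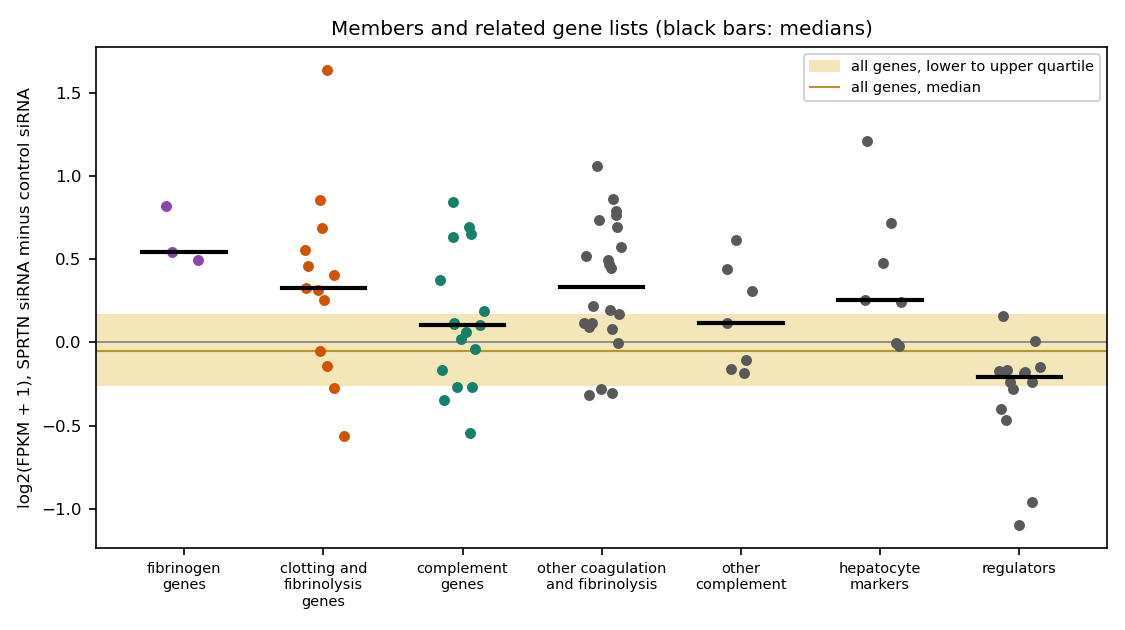
Log2 ratio of SPRTN siRNA minus control siRNA for each measured gene of the 3 member groups, of related lists, of hepatocyte markers and of upstream regulators, with black bars at the medians and a band from the lower to the upper quartile of all genes. The fibrinogen genes lie wholly above the band, the complement genes spread over and around it, and the regulators lie mostly below 0, with a median of -0.21.

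Other genes of the same pathways were read from lists that are not members. Of 30 further coagulation and fibrinolysis genes, 22 were measured, 18 with a log2 ratio above 0 and 4 below, with a median of 0.33. The share above 0 was 81.8%, against 43.4% of all measured genes. PLAU, the gene of urokinase, which cuts plasminogen into plasmin, was the one past 2-fold, at 4.33 FPKM with SPRTN siRNA against 1.56 FPKM in the control (log2 ratio 1.06). SERPINA5, the protein C inhibitor, had a log2 ratio of 0.79, and SERPINC1, the antithrombin gene, 0.76. Urokinase and its substrate PLG were thus both higher with SPRTN siRNA. The carboxylase of the vitamin K-dependent proteins, GGCX, named after its value was seen, was at 93.7 FPKM against 66.2 FPKM in the control (0.49). Of its 6 measured clients, F10, PROZ and PROC had log2 ratios above 0, and F2, PROS1 and F7 below.

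Of 28 further complement genes, 7 were measured, 4 above 0 and 3 below, with a median of 0.12, against 43.4% of all measured genes above 0. COLEC11, another lectin that carries the MASP proteases, was at 3.48 FPKM with SPRTN siRNA, against 1.92 FPKM in the control (log2 ratio 0.62). CD59, a membrane protein that blocks the pore, had a log2 ratio of 0.44, CLU, the gene of clusterin, 0.31, and CFD, the protease that cuts factor B, -0.18. The ficolin genes FCN1, FCN2 and FCN3 and the C1q chain genes C1QA, C1QB and C1QC were listed at 0 in both libraries.

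The upstream regulators lay mostly below equality. Of 15 listed transcription factors and interleukin-6 pathway genes, 14 were measured, 2 above 0 and 12 below, with a median log2 ratio of -0.21. That is 14.3% above 0, against 43.4% of all measured genes, most of which also lay below 0. IL6ST, the shared receptor chain gp130 that passes the interleukin-6 signal to STAT3, was the one past 2-fold, at 44.2 FPKM with SPRTN siRNA against 95.6 FPKM in the control (-1.10). A 7-base site for the siRNA guide is in the 3' UTR of IL6ST and in that of FOXA3 (-0.40), the other regulator that holds it, and its part in these values was not tested. CEBPB, an acute-phase transcription factor, was at 23.1 FPKM against 46.0 FPKM in the control (-0.96), and ONECUT1, a liver-enriched factor, was at 4.36 FPKM against 6.39 FPKM in the control (-0.46). HNF4A, looked at because its motif was searched and named after its value was seen, had a log2 ratio of -0.15. Activity of these factors was not measured.

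RefSeq promoter windows were found for 34 of the 39 members and for 27305 genes in all, and a gene with several windows counts as holding a motif if any window does. The HNF1 core GTTAAT was in 12 of the 34 members, 35.3%, against 8.27% of all genes. The C/EBP site TTGCNNAA was in 29.4% of members against 12.7% of genes, and the STAT site TTCNNNGAA in 32.4% against 9.38%. The interleukin-6 element CTGGGAA was in 23.5% of members against 13.1%, the HNF4 core CAAAGT in 26.5% against 14.3%, and the FOXA site TGTTTAC in 17.6% against 4.19%. The short motifs can overlap one another, and a match is not a binding site. Members with the HNF1 core moved both ways, with PLG and MBL2 among the highest and C5 and C1R among the lowest. In the windows shown above the HNF1 core lay 46 to 52 bases upstream in FGA, FGB and PLG. Between 40 and 60 bases upstream it lay in FGA, FGB, PLG, F13B and C4BPA. These limits were chosen after the positions in FGA, FGB and PLG were seen. The share of members in this window therefore cannot be set against that of all genes.

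An siRNA can also lower transcripts whose 3' UTR pairs with only bases 2 to 8 of its guide strand. The 7-base site for this siRNA, CTGGTTA, was looked for in the 3' UTRs of all 39 members, and 1 held it. This is MBL2, where the site starts at base 2355 of a 2757-base 3' UTR on chromosome 10 (capitals mark the site).
MBL2: accttattgcaCTGGTTAgcaaccccaata
Of the 33 measured members, 3.03% held the site, against 10.4% of 11162 genes searched. Genes with the site had a median log2 ratio of -0.23 and those without -0.05, and MBL2 had 0.84. The 8-base form CTGGTTAA was in 0 members, and the lower members PROS1, C5 and F2 held neither form.

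Members that lie next to each other on a chromosome did not always move together. Within 100 kb of another member lie 21 members in 8 clusters (GRCh38, GENCODE release 29). The fibrinogen genes share chromosome 4, FGB from 154562956 to 154571086 on the plus strand, FGA from 154583126 to 154590766 and FGG from 154604134 to 154612967 on the minus strand, and all were higher. C4BPB and C4BPA on chromosome 1 were also both higher, and C8A and C8B on the same chromosome both had log2 ratios below 0, although the C8B interval included 1. The other 4 clusters with at least 2 measured members held log2 ratios of both signs. On chromosome 13 F7, F10 and PROZ had log2 ratios of -0.05, 0.69 and 0.40, a range of 0.74. On chromosome 3 AHSG had -0.14 and KNG1 0.56, and without the pseudocount KNG1 had 0.91, farther from AHSG than any of the chromosome 13 genes were from each other. On chromosome 6 the range over C2, CFB, C4A and C4B was 0.37.

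**Figure D4:**
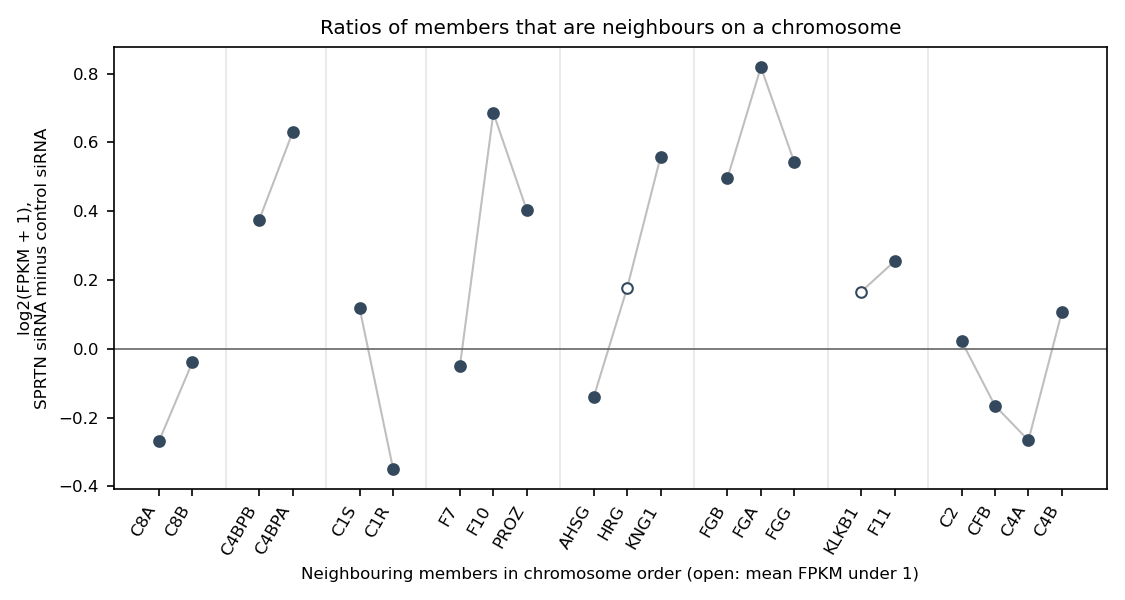
Log2 ratio of SPRTN siRNA minus control siRNA for the 21 members that lie within 100 kb of another member, in chromosome order within each cluster; lines join neighbours and open symbols have a mean FPKM under 1. The fibrinogen and C4BP clusters lie wholly above 0, and the F7, F10 and PROZ cluster has values on both sides of 0, with a range of 0.74.

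Of the 39 members, 37 have a test in the authors' deposited table, of which 3 are called higher and 0 lower. Over all 25035 genes tested in the authors' deposited table, 9.2% are called higher and 3.32% lower. The authors' deposited table gives PLG a log2 fold change of 1.74 with an adjusted p of 2.39e-218, F13B one of 1.34 with 1.11e-09, and HRG one of 5.85 with 2.86e-07. The last has a finite fold in the authors' deposited table although its control level is listed at 0. The submitters' processing notes name edgeR, but the sources used here do not say how these p-values were computed. They set 1 library against 1 library.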

How the data were processed

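Polyadenylated RNA was selected on oligo(dT) beads before random-primed cDNA synthesis, per the labels' protocols. The authors deposited FPKM per gene for both libraries, and a second table with a coverage signal, the log2 fold change and p-values. Build GRCh38.p13 and edgeR are named in the submitters' processing notes. The heading of the FPKM table mentions row means without saying what was averaged, so a column may cover several cultures. The sources used here name no aligner, counter or strand setting. The deposited FPKM times the mean GENCODE release 29 transcript length gave whole reads (within 0.05, up to 20 reads) for 93.3% of values with SPRTN siRNA and 94.0% in the control, and for 83.8% and 84.8% among genes with more than 1 transcript. Of the members, 7 had both read numbers within 0.05 of whole, so the others' reads are approximate. Folds carry exact Clopper-Pearson 95% intervals of these reads, tested on simulated data. Differences are log2(FPKM + 1), SPRTN siRNA minus control. The members, lists and alternatives were chosen with earlier results of these data known. Every member is named. Of each related list, genes past 2-fold and up to 4 with the largest absolute log2 ratio are named (3 for regulators), but some listed genes are not reported here. No replicate exists, so no test was run. Python 3.11.15, numpy 2.4.6, pandas 2.3.3 and scipy 1.17.1 were used. Alternatives were other pseudocounts, filters and scalings, recovered reads, C4A and C4B as 1 gene, and omission of MBL2, which holds a guide site.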

Additional observations from a re-analysis of the deposited data

How the results depend on the processing

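No paired analysis was possible because each group has 1 library, and for the same reason no replicate could be left out. With no low-value filter the median log2 ratio of all members was 0.18 over 39 genes, against 0.25 over the 33 measured. Without PLG, an alternative chosen after seeing the data, 0 members were at least 2-fold higher. Over all settings run, the median was 0.18 to 0.31 for all members, 0.53 to 0.60 for fibrinogen, 0.31 to 0.38 for the other clotting genes and 0.08 to 0.16 for complement. Of 165 single-member values, 144 stayed within the counting interval, 21 moved and 2 changed sign. Those were F7 (0.004) and C8B (0.01), both when the ratios were centred on the median gene. Members under 1 FPKM rest on at most 112 reads.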

Other observations

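Which member is the most abundant depends on the transcript length used. By deposited FPKM C3 stood first in both libraries and AHSG second. The FPKM of C3 divides by a mean length of 874 bases over 18 annotated transcripts, while its longest coding transcript has 5263 bases. Scaled to the longest coding transcript, AHSG had 1419.5 with SPRTN siRNA and 1565 in the control on the FPKM scale, and C3 had 618 and 593. Plain FPKM ratios between libraries do not depend on this choice, but log2(FPKM + 1) ratios of low genes do.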
